A study of Mus musculus with 4 samples.

Results

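The collagen chain genes of the mouse were followed through 4 sections of cryoinjured newborn hearts. All feature symbols that read Col, digits, a, digits were taken, which gave 44 of 32285 features. The set held 11 fibrillar chains, 6 basement membrane chains, 6 beaded filament chains of type VI, 9 fibril-associated chains with interrupted helices (FACIT), 3 network chains, 2 multiplexins and 7 others. Of the 44, 21 reached 20 CPM (UMIs, that is counted molecules, scaled to a common section total) in at least 1 section and 16 did so in every section. Another 20 were detected at lower levels, and 3 had no UMI in any section.

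Collagens are trimers of chains that wind into a triple helix. Fibrillar collagens I, III and V assemble into the tensile fibres of the heart's interstitium and of scars, with type V limiting fibril diameter and FACIT collagens binding to the fibril surface. Type IV collagen forms the sheet-like network of basement membranes, which in the heart surrounds each cardiomyocyte and each capillary. Type VI makes beaded filaments between cells and fibres, type VIII makes short-chain networks, and the multiplexins XV and XVIII are proteoglycans of basement membrane zones. In the heart, fibroblasts are the main source of fibrillar collagen, while endothelial and mural cells also make type IV.

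The sections came from ICR mice whose left ventricular apex was touched with a cooled probe for 5 s on postnatal day 1. Hearts were taken 1, 4, 7 and 14 days later (d1, d4, d7 and d14), at postnatal days 2, 5, 8 and 15, and a section of 10 µm from each was placed on a Visium array, whose barcoded spots each cover a small region with several cells. Per the series' design text the hearts were cut until the injury could be seen. All 4 hearts were injured, no uninjured section was analysed here, and time after injury and age cannot be told apart. With 1 section per day there is no replicate check, so no p-value is given, and every interval covers counting error only.

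Between 445 (d1) and 1175 (d14) spots held 500 or more UMIs, with medians of 7810, 7998 and 8028 UMIs per spot at d1, d4 and d7 and 3770 at d14. The 10 cardiomyocyte markers were all detected in each section and summed to between 63678 and 92766 CPM, while the 6 adipocyte markers summed to 0 to 17 UMIs per section and the 5 lung epithelium markers to 6 to 27. Mitochondrially encoded genes took 11.6% of UMIs at d7 against 5.17% to 8.54% in the others. The d7 section had 1 UMI of Xist and 460 of the Y-linked Eif2s3y, a male pattern, while the others had 158 to 341 and 0. Of 1328 distinct spot barcodes 1000 occurred in at least 2 sections, since such arrays share a barcode list.

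RefSeq promoter windows (250 bases before to 50 after the start site, GRCm38.p6) were matched for 35 of the 44 genes and searched on both strands for 4 motifs. The 3 genes whose window held the Egr1 site GCGNGGGCG are printed because the series' title names Egr1 and because these genes carry contrasting results here. Col4a1 and Col4a2, the most abundant basement membrane chains, run in opposite directions from start sites 21 bases apart and had UMI ratios to each other between 1.12 and 1.298, while Col8a1 had the largest ratio to d1 among the chains that passed the rule given below. Capitals mark each match of GCGNGGGCG or of the GC box GGGCGG in either orientation. The windows lie on the minus strand at chr8:11312777-11313076 for Col4a1, on the plus strand at chr8:11312555-11312854 for Col4a2 and on the minus strand at chr16:57754688-57754987 for Col8a1.
Col4a1: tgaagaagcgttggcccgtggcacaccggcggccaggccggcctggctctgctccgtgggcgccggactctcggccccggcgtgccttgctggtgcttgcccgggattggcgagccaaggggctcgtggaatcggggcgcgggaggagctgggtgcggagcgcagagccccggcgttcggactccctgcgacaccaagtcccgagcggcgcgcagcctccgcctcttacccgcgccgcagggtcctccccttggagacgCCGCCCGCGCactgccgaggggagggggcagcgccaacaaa
Col4a2: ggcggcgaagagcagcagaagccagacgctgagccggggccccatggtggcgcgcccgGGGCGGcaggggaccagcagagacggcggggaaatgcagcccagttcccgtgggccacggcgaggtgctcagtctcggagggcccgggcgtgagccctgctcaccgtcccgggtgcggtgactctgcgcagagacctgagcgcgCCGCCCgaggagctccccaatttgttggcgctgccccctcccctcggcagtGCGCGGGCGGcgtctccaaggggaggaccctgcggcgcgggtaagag
Col8a1: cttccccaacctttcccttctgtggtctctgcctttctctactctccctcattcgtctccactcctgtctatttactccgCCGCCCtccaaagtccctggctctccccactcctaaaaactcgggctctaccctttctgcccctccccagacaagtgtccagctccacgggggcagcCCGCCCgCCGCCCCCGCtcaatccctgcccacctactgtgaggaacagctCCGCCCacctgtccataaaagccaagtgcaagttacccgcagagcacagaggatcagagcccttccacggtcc
The Col4a1 and Col4a2 windows share 78 bases, and both hold the same Egr1-type match at chr8:11312808-11312816, which overlaps a GC box at chr8:11312812-11312817. In Col8a1 the match lies upstream of the start site, at chr16:57754794-57754802, and overlaps a GC box too. Over all 32851 promoters of the table, 5.55% held GCGNGGGCG, 35.7% GGGCGG, 37.4% CCAAT and 13.6% TATAAA, and among the 35 collagen genes 3, 22, 13 and 5 did. The windows were 74%, 73.7% and 60.3% G or C in the order printed. A match describes these letters and is not a measured binding site.

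Collagen genes together made 4924 CPM at d1 and 9615, 8405 and 8431 CPM at d4, d7 and d14. The d1 section was the lowest, and the later sections had between 1.71 and 1.95 times its level. Fibrillar chains carried most of the difference, at 2385 CPM at d1 against 5438, 4962 and 4428 later. They were 2.28-fold higher at d4 than at d1 (95% interval 2.22 to 2.34), 2.08-fold at d7 (2.03 to 2.13) and 1.86-fold at d14 (1.81 to 1.91). Basement membrane chains had 1761, 2689, 2071 and 2431 CPM, and their ratios to d1 of 1.53, 1.18 and 1.38 all stayed under 2. Fewer cells of a type and less RNA per cell cannot be told apart in these sums.

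The make-up of collagen UMIs within a section, which needs no scaling between sections, differed as well. Fibrillar chains held 48.4% of collagen UMIs at d1 (47.7 to 49.2), then 56.6%, 59.0% and 52.5% in the later sections. Basement membrane chains went the other way, with 35.8% at d1 (35.0 to 36.5) against 28.0%, 24.6% and 28.8% on days 4, 7 and 14. The FACIT class was small, with 1.64%, 3.63%, 3.28% and 1.99%. The beaded filament share was lowest at d4 (7.22%) and highest at d14 (10.6%), and that of the multiplexins was lowest at d4 (3.76%) and highest at d14 (5.31%). Counts come from transcript 3′ ends and are not divided by length, so these are shares of molecules counted and not of protein.

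**Figure D1:**
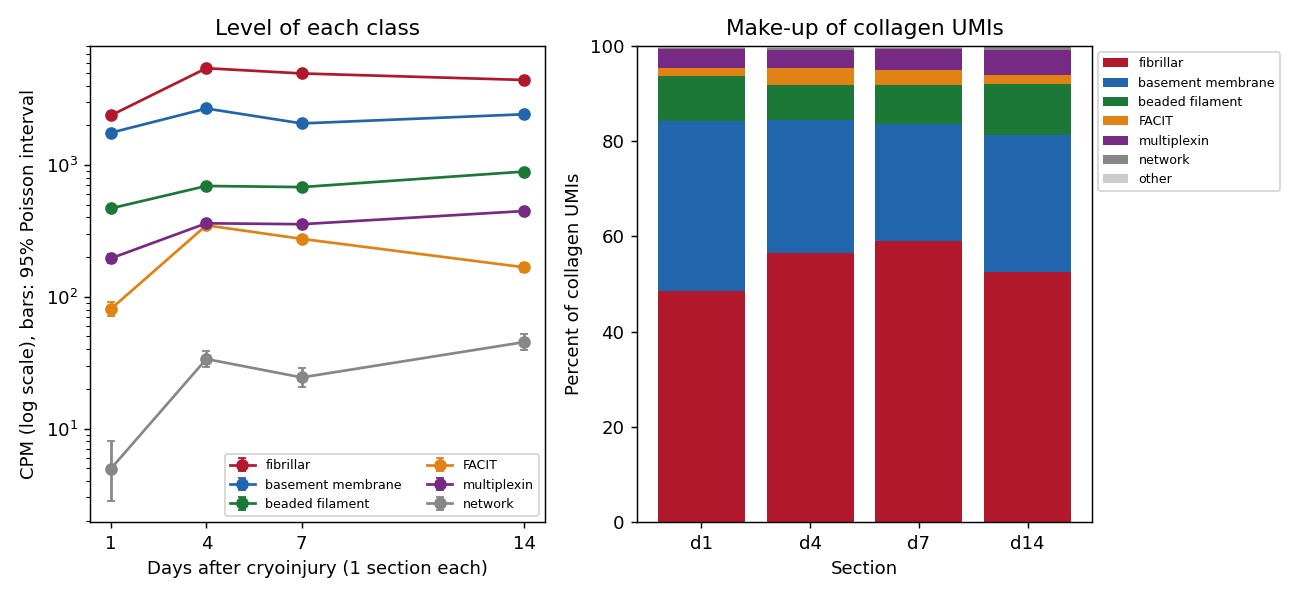
Left, CPM of 6 collagen classes (log scale, bars are 95% Poisson intervals) against days after injury, 1 section per day. Right, the percent of collagen UMIs in each class by section. Each plotted class was lowest at d1, and the fibrillar share was 48.4% at d1 and 59.0% at d7 while the basement membrane share was 35.8% and 24.6%.

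The rule for a chain counted as higher or lower was a difference of at least 2-fold with an interval excluding 1, and at least 20 CPM on 1 side of the comparison. At d4, 12 of the 21 chains that could be compared were higher than at d1 and 0 lower, where 4.69% of all 7276 genes compared were higher and 1.44% lower (6.13% in either direction). At d7, 8 of 20 were higher and 0 lower (3.45% and 2.85% of all genes, 6.3% in either direction), and at d14, 7 of 18 were higher and 0 lower (7.32% and 6.07%, 13.4% in either direction). The chains' median log2 ratios were 1.13, 0.64 and 0.89, against 0.17, -0.03 and -0.06 over all genes. These comparisons share the d1 section. A chain under 20 CPM at d1 could enter only through a later section above 20 CPM, so its count as higher was partly set by the rule. Among the chains counted, this held at d4 for Col8a1, Col12a1, Col26a1, Col6a6 and Col11a1. It held for Col8a1, Col26a1 and Col6a6 at d7 and for Col8a1 and Col6a6 at d14. The shares of all genes come from the same rule. The genes higher at all 3 later days were Col3a1, Col14a1, Col16a1, Col15a1, Col6a6 and Col8a1.

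The counts at d4 and d7 were lower when some spots were left out. A setting left out the 10% of spots of each section that were richest in other matrix genes (described further on). It gave 7 of 18 chains higher at d4, 4 of 17 at d7 and 7 of 18 at d14. Of all genes 4.05%, 3.24% and 7.33% were higher. Another setting left out only spots holding a UMI of the 7 valve and cartilage markers. These were 22 of 445, 113 of 662, 116 of 774 and 75 of 1175 spots from d1 to d14, so unlike parts of the sections were removed. Their median depths were 9560, 11744, 8047 and 4097 UMIs against 7727, 7281, 8020.5 and 3752.5 in the others. This setting gave 5 of 19 chains higher at d4, 6 of 18 at d7 and 7 of 18 at d14. In both settings fewer chains could be compared at d4 and d7 than with all spots. The shares of all genes were 3.91%, 3.18% and 7.27%. TMM scaling put the median gene at d4 at -0.01 on the log2 scale in place of 0.17. It gave 9 of 21, 8 of 20 and 8 of 18 chains higher, against 2.98%, 3.65% and 8.29% of all genes.

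**Figure D2:**
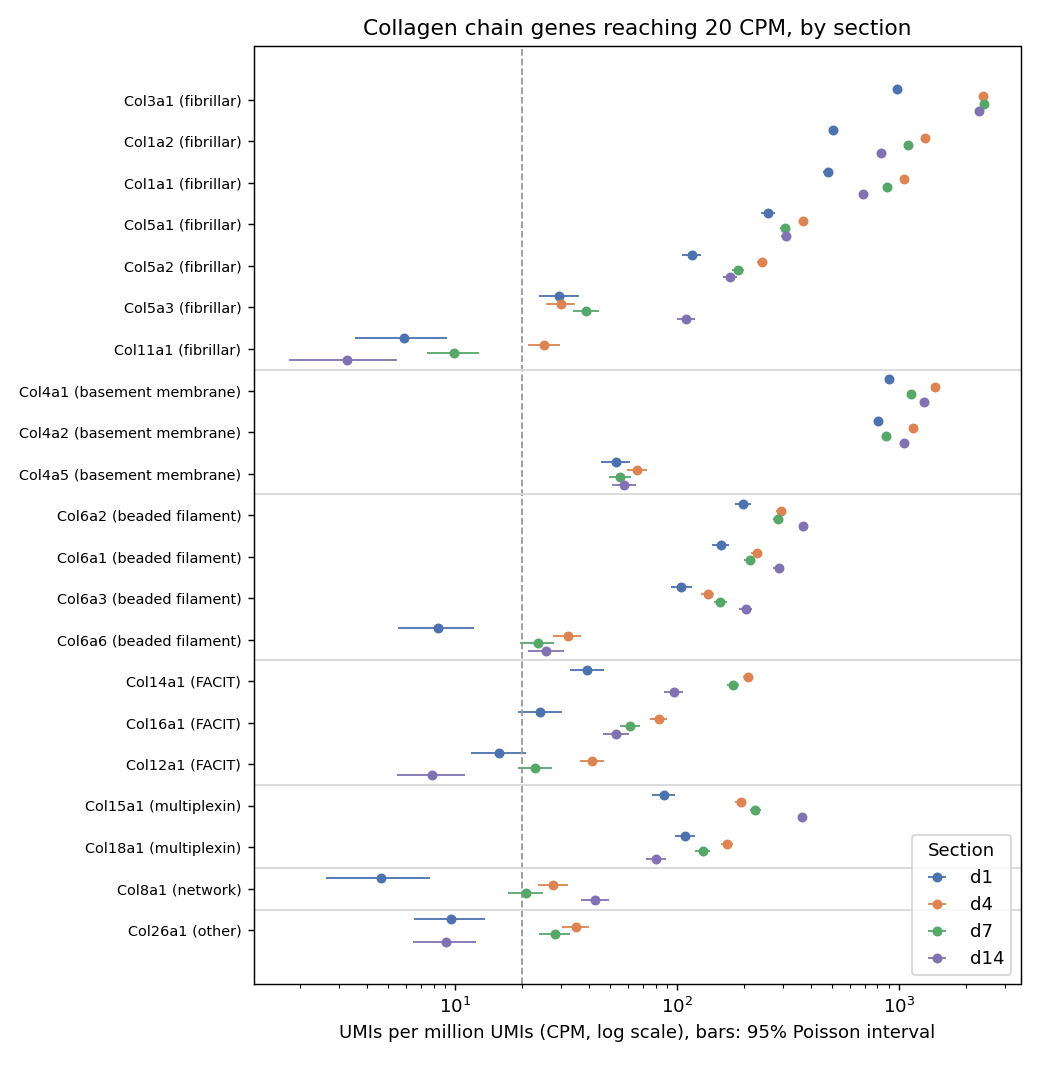
CPM (log scale) of the 21 chains that reached 20 CPM, grouped by class, with 95% Poisson intervals. Colours are the 4 sections and the dashed line marks 20 CPM. Col3a1, Col1a2 and Col1a1 at d1 lie left of all later sections, Col5a3, Col15a1 and Col8a1 are farthest right at d14, and Col11a1, Col12a1 and Col26a1 are highest at d4.

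Col3a1, the only chain of type III collagen, which is prominent in young repair tissue, had the most UMIs of any collagen in every section. Its level was 982 CPM at d1 against 2389.5, 2420.1 and 2303 on days 4, 7 and 14. Its ratios to d1 were 2.43, 2.46 and 2.35, so the 3 later sections stood close together and apart from d1. The chains of type I collagen, the stiffest and most abundant fibre of adult scar, were highest at d4 and lower in each later section. Col1a1 had 479, 1051, 882 and 688 CPM, and Col1a2 had 506, 1313, 1103 and 829. Col1a1 was 2.19-fold higher at d4 than at d1 (2.07 to 2.32) and 1.43-fold at d14 (1.35 to 1.53). Without the matrix-rich spots the d4 ratio of Col1a1 was under 2 (log2 0.78), and that of the fibrillar class was 1.90 (1.85 to 1.96).

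Type V collagen is a minor fibrillar collagen that nucleates fibrils. Col5a1 had 257, 369, 306 and 309 CPM and Col5a2 had 116, 242, 188 and 173, so both peaked at d4, where Col5a2 was 2.08-fold above d1 (1.85 to 2.34). Col5a3, a chain with a more restricted distribution, had 29.5, 29.9, 39.0 and 110 CPM. It did not share the d4 peak: its d4 ratio was 1.02 (0.79 to 1.32, and below 1 with TMM scaling, log2 -0.16), and at d14 it was 3.73-fold higher than at d1 (2.99 to 4.70). Col11a1, the type XI chain best known from cartilage, had 5.89, 25.1, 9.88 and 3.25 CPM. It was 4.27-fold higher at d4 than at d1 (2.64 to 7.29) from 147 and 19 UMIs, and log2 1.22 without the valve and cartilage spots, where it no longer reached 20 CPM.

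In the basement membrane class Col4a1 had 899, 1449, 1134 and 1297 CPM and its partner Col4a2 had 802, 1162, 874 and 1054. Both were highest at d4 and next highest at d14, and none of their ratios to d1 reached 2: they lay between 1.09 for Col4a2 at d7 and 1.61 for Col4a1 at d4. Col4a5, an X-linked chain, had 53.0, 66.2, 55.3 and 57.8 CPM, the narrowest range of the chains named here, and its intervals against d1 at d7 and d14 included 1. Col4a4, a chain of the collagen IV that is typical of the kidney glomerulus, stayed under 20 CPM with 8, 35, 24 and 69 UMIs, and its 16.0 CPM at d14 were 6.46-fold the d1 level (3.10 to 15.6).

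Type VI chains, in which Col6a1 and Col6a2 pair with a longer chain, were highest at d14. Col6a1 had 158, 229, 213 and 288 CPM, Col6a2 had 198, 293, 285 and 371, and Col6a3 had 105, 137, 157 and 204. Their d14 ratios of 1.83, 1.87 and 1.95 lay just under the 2-fold rule, and Col6a3 passed it with TMM scaling (log2 1.03). Col6a6, an alternative to Col6a3 in the trimer, had 8.37, 32.2, 23.5 and 25.8 CPM and was at least 2.81-fold above d1 on each later day. Its neighbour Col6a5 had 1 UMI at d1 and 15, 18 and 19 later.

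The FACIT chains gave the largest class ratio at d4 after the network class. The class had 80.9 CPM at d1 against 349, 275 and 167 on days 4, 7 and 14, so it was 4.31-fold higher at d4 (3.79 to 4.92), 3.40-fold at d7 (2.98 to 3.89) and 2.07-fold at d14 (1.79 to 2.39). Col14a1, a fibril surface chain that regulates fibril growth, had 39.4, 209, 180 and 96.9 CPM and was the largest member of the class in every section. Col16a1 had 24.2, 82.8, 61.4 and 53.2 CPM and followed the same order. Col12a1, a chain of tissues under tension, had 15.8, 41.4, 23.0 and 7.90 CPM, so it was above its d1 level at d4 and under it at d14. Outside the matrix-rich spots Col12a1 had 5.88 CPM at d7 (30 UMIs) and 9.46 at d1 (28 UMIs). This log2 ratio of -0.69 rests on few UMIs, with both levels under 20 CPM. The FACIT ratio at d14 was 1.89 (1.60 to 2.25) outside those spots.

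Among the low FACIT chains, the cartilage chain Col9a2 had 1 UMI at d1 and 65, 35 and 8 at d4, d7 and d14. At 11.1 CPM in the d4 section it was 35.9-fold above d1, with a counting interval of 6.21 to 1438. Its partners Col9a1 and Col9a3 had 0, 1, 1 and 0 UMIs and 1, 6, 7 and 10.

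Col8a1, a short-chain network collagen of vessels and of remodelling matrix, had 4.65 CPM at d1 (15 UMIs) against 27.7, 20.8 and 42.7 on days 4, 7 and 14. Its ratios to d1 were 5.96 (3.51 to 10.9), 4.48 (2.61 to 8.26) and 9.19 (5.43 to 16.8). Without the valve and cartilage spots the d4 and d7 ratios were log2 1.51 and 1.67, and the chain no longer reached 20 CPM there. Col8a2, its partner chain, had 1, 35, 20 and 11 UMIs, and Col10a1, the chain of growth plate cartilage, had none.

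The multiplexins went separate ways. Col15a1 had 87.1, 194, 225 and 367 CPM and was higher in each later section, at 2.23-fold (1.95 to 2.55), 2.59-fold (2.27 to 2.95) and 4.21-fold (3.71 to 4.80) the d1 level. Col18a1, whose C-terminal fragment is endostatin, had 109, 167, 130 and 80.6 CPM, highest at d4 and lowest at d14, where its ratio to d1 was 0.741 (0.637 to 0.861). Their summed class ratio at d14 of 2.29 therefore came from Col15a1.

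Of the other chains, Col26a1 alone reached 20 CPM, with 9.61, 34.9, 28.2 and 9.06 CPM. It was 3.63-fold (2.48 to 5.48) and 2.93-fold (1.99 to 4.46) above d1 at d4 and d7 and near its d1 level at d14. Col23a1 and Col13a1, membrane-bound collagens, were highest at d1 in CPM, with 28, 39, 20 and 13 UMIs and 14, 11, 6 and 10 UMIs, and Col13a1 at d7 had 0.248 of its d1 level (0.078 to 0.687). The remaining low chains that differed at least 4-fold between any 2 sections with an interval excluding 1 were Col20a1 (3, 19, 18 and 21 UMIs) and Col24a1 (2, 11, 16 and 1). Col2a1, the main cartilage collagen, had 1, 3, 1 and 0 UMIs. The 3 chains without a UMI were Col10a1, Col19a1 and Col28a1, and the limit that a count of 0 allows was 0.930, 0.513, 0.539 and 0.697 CPM per section.

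Fewer chains passed between neighbouring later sections than against d1. Between d4 and d7, 0 of 21 chains were higher and 1 lower, Col11a1, at 0.393 of its d4 level (0.283 to 0.539), where 0.723% and 1.51% of all genes were (2.24% in either direction). The chains' median log2 ratio was -0.27 against -0.20 over all genes, and the fibrillar class ratio of 0.912 turned to log2 0.08 with TMM scaling. Between d7 and d14, Col5a3 (2.82-fold, 2.40 to 3.33) and Col8a1 (2.05-fold, 1.62 to 2.61) were higher, and Col12a1 (0.344, 0.228 to 0.505) and Col26a1 (0.321, 0.220 to 0.459) were lower. These 2 and 2 of 20 chains stood against 5.04% and 3.51% of all genes (8.55% in either direction). Col11a1 at d7 and Col12a1 and Col26a1 at d14 were under 20 CPM, so these chains entered only through the earlier day. The summed collagen level did not separate d14 from d7, with a ratio of 1.00 (0.989 to 1.02).

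Ratios of UMIs between 2 chains of a section do not depend on depth or scaling. The ratio of Col3a1 to Col1a1 was 2.05 at d1 (1.93 to 2.18) against 2.27, 2.74 and 3.35 on days 4, 7 and 14 (3.21 to 3.49 at day 14), with no overlap of intervals between any 2 sections. Col15a1 to Col18a1 was 0.801 at d1 (0.682 to 0.939) against 1.16, 1.73 and 4.56 on days 4, 7 and 14 (4.05 to 5.13 at day 14), the widest range of the pairs plotted. Partner chains of types I, IV and VI had narrower ranges. Col6a1 to Col6a2 was 0.794, 0.780, 0.747 and 0.776 with intervals that all overlapped, Col1a1 to Col1a2 was 0.947, 0.801, 0.799 and 0.830, and Col4a1 to Col4a2 was 1.12, 1.25, 1.298 and 1.23. For both of the latter the d1 interval lay apart from those of all later sections. For Col4a1 to Col4a2 this was narrow at d14 (1.0628 to 1.1826 at d1 and 1.1829 to 1.2798 at d14). A second type VI pair, Col6a3 to Col6a1, which is not plotted, was 0.663, 0.601, 0.736 and 0.708. Its intervals at d4 (0.550 to 0.657) and d7 (0.674 to 0.804) lay apart. Other partner chains varied more: Col5a1 to Col5a2 was 2.21, 1.53, 1.63 and 1.79, and Col8a1 to Col8a2 was 15 (2.31 to 632, from 15 UMIs and 1), 4.63, 5.80 and 16.7.

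**Figure D3:**
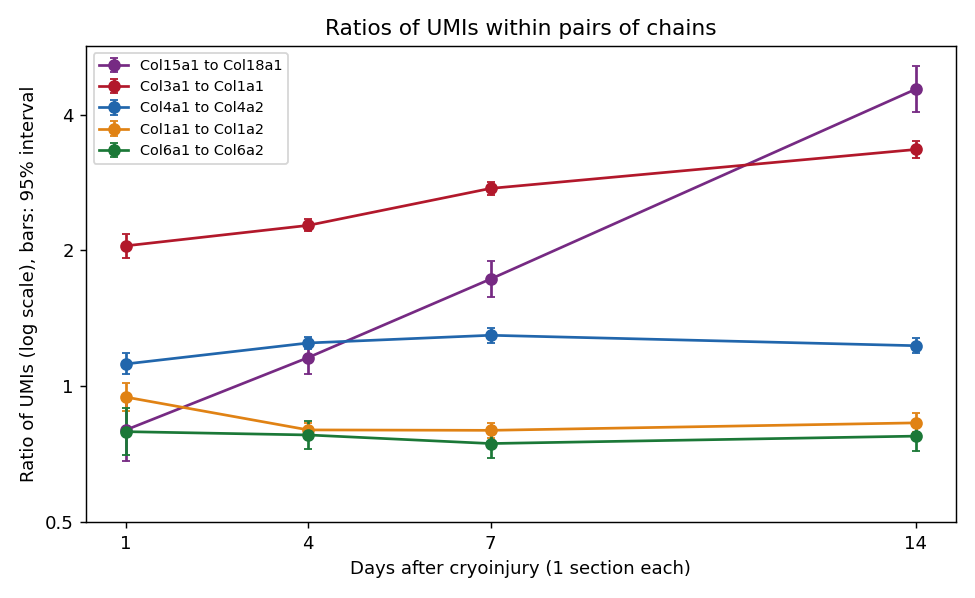
Ratio of UMIs within 5 pairs of chains (log scale, bars are 95% intervals) against days after injury, 1 section per day. Col15a1 to Col18a1 climbs from 0.801 to 4.56 and Col3a1 to Col1a1 from 2.05 to 3.35, while the plotted pairs of types I, IV and VI stay between 0.747 and 1.298.

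Collagen UMIs were present almost everywhere. Every kept spot held at least 1, and the median spot gave 0.412% of its UMIs to collagens at d1 and 0.690%, 0.659% and 0.696% later. The highest spot held 2.19%, 7.02%, 5.29% and 5.15%. Since depth differed, the share of spots with a UMI of a chain was also taken after thinning each spot to 2500 UMIs, which left out 40, 3, 3 and 131 shallower spots. Col3a1 was then found in 81.7% of spots at d1 (77.6 to 85.4) and in 97.3%, 95.5% and 95.9% later (95.1%, 99.7%, 99.7% and 97.3% without thinning). Col15a1 was found in 19.5%, 34.6%, 39.2% and 53.7% of spots and Col18a1 in 23.0%, 31.3%, 23.0% and 13.8% (unthinned 42.9%, 68.4%, 75.5% and 66.6%, and 48.5%, 69.3%, 57.1% and 20.5%). After thinning Col15a1 followed the order of its CPM, and Col18a1 was highest at d4 and lowest at d14 as in CPM, with d1 and d7 level. Col5a3 was found in 6.42%, 6.37%, 8.95% and 20.5% of thinned spots (18.9%, 21.1%, 22.5% and 31.2% unthinned). No spot could serve as a blank, so the share that free RNA gives was not measured.

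To see where in a section the chains lay without using collagens, spots were ranked by the share of UMIs from 28 other matrix genes, among them Fn1, Tnc, Postn and Sparc, and the top 10% were called matrix-rich. These were 44, 66, 77 and 117 spots, with median depths of 6100.5, 11873.5, 6535 and 3845 UMIs against 7981, 7413.5, 8108 and 3753.5 in the rest. They are a range of a score and not a cell type, since the lowest matrix-rich spot and the highest other spot nearly met (1.53% and 1.52% of UMIs at d4). Positions on the tissue were not used here.

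Matrix-rich spots also differed in cell markers. The 10 cardiomyocyte markers summed to 48731, 30940, 39676 and 56700.1 CPM there against 79823, 68585, 81289 and 96855 in the rest. The 10 fibroblast markers, of which Dcn, Lum and Mfap5 are in the matrix list too, summed to 1218, 2953, 5087 and 9872 CPM against 859, 1284, 1561 and 3812. The 10 macrophage markers summed to 1973, 740.1, 735 and 1084 CPM against 191, 126, 168 and 411, and all genes of these 3 lists were detected in every section. Of the matrix-rich spots, 30 of 44, 39 of 66, 31 of 77 and 40 of 117 were also in the top 10% by macrophage markers, and 10, 38, 56 and 67 in the top 10% by fibroblast markers. Mural markers summed to 2120 CPM in matrix-rich spots at d1 and 3487, 1684 and 2767 later, against 1125, 1141, 1182 and 1682 in the rest. Endocardial markers summed to 350, 377, 306 and 593 CPM against 199, 117, 65.9 and 155, and epicardial markers to 188, 239, 143 and 196 against 81.5, 115, 92.5 and 44.2. Neutrophil markers were higher there at d1 (752 against 174 CPM) and d14 (123 against 38.8) and lower at d4 (15.7 against 38.0) and d7 (10.7 against 21.2). Endothelial markers had 1161, 1046, 1026 and 1481 CPM against 901, 1324, 1214 and 1389. Spots with a valve and cartilage UMI made up 4, 42, 31 and 28 of them; 5 of the 7 markers were detected in each section and Matn1 in none. The part of each of these in the collagen ratios was not tested.

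Collagens were concentrated in these spots, most of all the fibrillar, FACIT and network chains. With at least 20 UMIs in the section, 13 of 20 chains were at least 2-fold higher in matrix-rich spots at d1, and 17 of 29, 19 of 26 and 19 of 23 in the later sections, while 0 were lower in any section. Over all genes 10.4%, 10.6%, 11.2% and 12.1% were higher and 2.76%, 6.44%, 3.26% and 2.2% lower. The chains' median log2 ratios were 1.42, 1.45, 2.14 and 1.64 against 0.15, 0.09, 0.19 and 0.23 over all genes.

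Fibrillar chains were 3.99-fold, 4.79-fold, 6.15-fold and 3.82-fold higher in matrix-rich spots at d1, d4, d7 and d14, and FACIT chains 4.00-fold, 5.94-fold, 7.30-fold and 4.57-fold. Type IV chains as a class were enriched little, at 1.83, 1.77, 1.29 and 1.35, under 2-fold in all 4 sections. Beaded filament chains lay between, at 2.48, 2.25, 3.01 and 2.78, and multiplexins had 1.97, 2.16, 1.79 and 2.54. Within type IV, Col4a1 and Col4a2 stayed under 2-fold in every section, but Col4a5 passed at d14 (2.39, 1.73 to 3.25). The low chain Col4a4 passed at d7 (6.54, 2.52 to 16.0, from 9 and 15 UMIs) and at d14 (3.11, 1.71 to 5.42). The network class had 14 UMIs in matrix-rich spots and 2 in the rest at d1, and ratios of 16.4 (12.0 to 22.7), 17.6 (12.3 to 25.4) and 4.51 (3.30 to 6.12) later. As a result fibrillar chains held 61.8%, 68.9%, 76.6% and 65.3% of collagen UMIs in matrix-rich spots and 44.97%, 50.1%, 52.3% and 48.4% elsewhere.

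**Figure D4:**
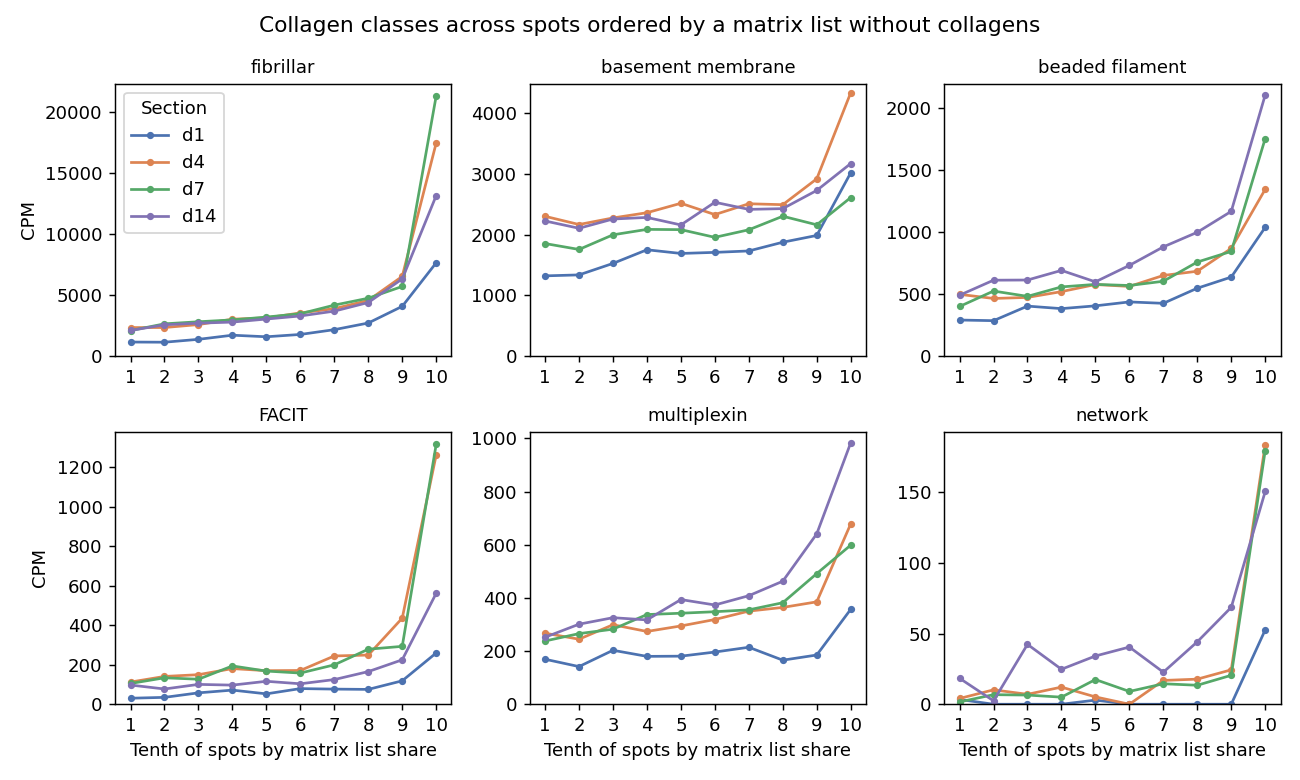
CPM of 6 collagen classes in 10 equal sets of the spots of each section, ordered from the lowest to the highest share of a matrix list without collagens; each panel has its own axis from 0. Fibrillar, FACIT and network levels are far higher in the last set (fibrillar at d7 from 5705 to 21290.5 CPM), while basement membrane chains stay flatter (2160.3 to 2608 CPM at d7).

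Single chains differed in how far they were concentrated. Col12a1 was 9.13-fold, 18.2-fold, 35.6-fold and 14.2-fold higher in matrix-rich spots, so that 98 of its 128 UMIs at d7 lay in 77 of 774 spots (ratio interval 23.4 to 55.6). Col8a1 was 20.3-fold, 22.4-fold and 4.16-fold higher at d4, d7 and d14, and Col11a1 12.2-fold and 20.7-fold at d4 and d7. Col8a1 outside the matrix-rich spots stood at 7.87, 7.45 and 32.3 CPM at d4, d7 and d14, so its d14 level was the more widely spread. Col1a1 and Col1a2 were enriched 4.64-fold to 7.39-fold and Col3a1 3.54-fold to 5.93-fold.

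Other chains were not drawn to these spots in the same way. Col5a3, although fibrillar, passed 2-fold only at d1 (2.97, 1.71 to 4.91), and had 1.33, 1.55 and 1.74 later. Col26a1 had intervals that included 1 in all 4 sections. Col6a6 was not enriched at d4 (0.750, 0.441 to 1.21) and was 6.51-fold higher at d7 (4.48 to 9.39) and 2.43-fold at d14 (1.48 to 3.86). Col18a1 had ratios of 1.47, 1.82, 2.25 and 4.32, whose d14 interval of 3.42 to 5.42 lay above the others. Outside the matrix-rich spots it had 105, 151, 118 and 60.3 CPM, and within them 154, 276, 265 and 260.1, so its low d14 level was found in the rest, while the matrix-rich spots stood above their d1 level.

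**Figure D5:**
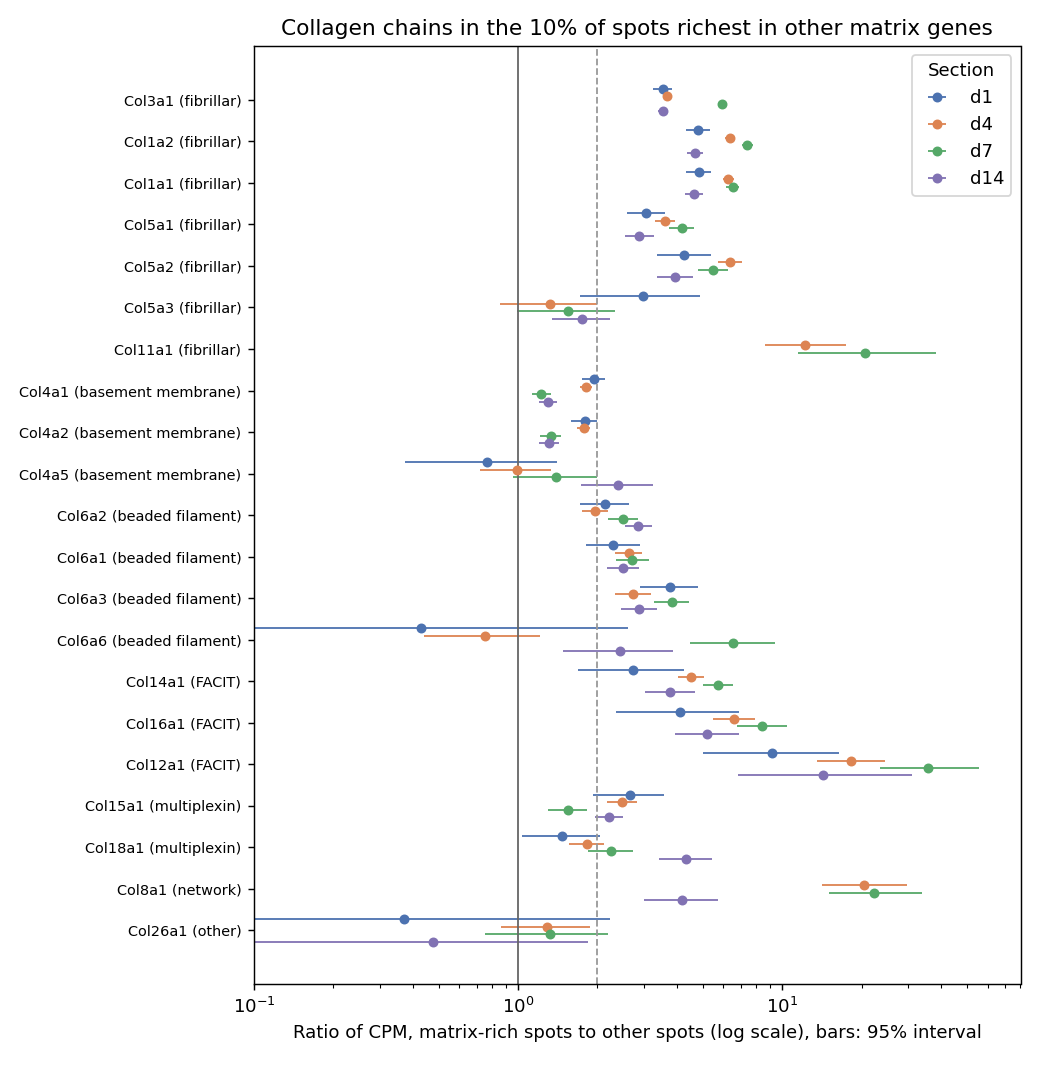
Ratio of CPM in matrix-rich spots to the other spots (log scale) for the 21 chains, with 95% intervals; colours are the 4 sections, the solid line marks 1 and the dashed line 2. Intervals past the left edge end there, and a chain under 20 UMIs in a section has no point. Col12a1, Col8a1 and Col11a1 lie farthest right, and the points of Col4a1 and Col4a2 lie left of the dashed line in all 4 sections.

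Levels from section to section also differed between the 2 sets of spots. The matrix-rich set was a fixed top 10% of each section and was not equally rich in matrix. In it the matrix list took 1.12%, 3.03%, 3.53% and 2.18% of UMIs at d1, d4, d7 and d14. The rest had 0.331%, 0.585%, 0.556% and 0.546%. The part of this in the levels that follow was not tested. In matrix-rich spots fibrillar chains had 7641, 17442, 21290.5 and 13137 CPM, highest at d7, and in the rest 1913, 3639, 3464 and 3441. From d7 to d14 the matrix-rich level was 0.617-fold (0.597 to 0.637) while the rest kept a ratio of 0.993 (0.971 to 1.02). FACIT chains had a d14 to d7 ratio of 0.427 (0.367 to 0.496) in matrix-rich spots and 0.683 (0.610 to 0.763) in the rest. Type IV chains in matrix-rich spots had 3014, 4330.4, 2608 and 3167 CPM, so at d7, where fibrillar chains were highest, they were lowest. The intervals of the fibrillar and FACIT ratios do not overlap between the sets of spots, but spots of 1 heart are not replicates and the difference has no test.

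The counts also depended on the list that chose the spots. When the top 10% were taken by fibroblast markers, 1 of 20 chains was higher at d1, and 14 of 29, 16 of 26 and 13 of 23 later. By macrophage markers the counts were 10, 15, 13 and 7, so the fibroblast list gave far fewer than the matrix list at d1 and the macrophage list at d14. At d1 the fibrillar log2 ratio was 0.60 in fibroblast-marker spots, against 1.998 in matrix-rich spots.

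Across spots thinned to 2500 UMIs, Spearman's rho described how classes went with markers; the points share a section and a library, and no p is given. At d1, d4, d7 and d14 fibrillar chains had rho of -0.37, -0.55, -0.46 and -0.56 with the cardiomyocyte list. With the fibroblast list they had 0.19, 0.41, 0.49 and 0.53. The macrophage list gave 0.31, 0.20, 0.22 and 0.19, above the fibroblast list at d1, and the endocardial list 0.03, 0.26, 0.26 and 0.33. Basement membrane chains had 0.09, -0.03, 0.11 and 0.10 with the endothelial list, too weak to read in such sparse counts. They had 0.07, 0.17, 0.10 and 0.20 with the fibroblast list and -0.30, -0.31, -0.14 and -0.19 with the cardiomyocyte list. Among pairs, Col1a1 and Col1a2 had 0.42, 0.44, 0.35 and 0.42. Col4a1 and Col4a2, although each was found in over 80% of thinned spots, had 0.23, 0.10, 0.03 and 0.08.

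Genes that make, fix and remove collagen were taken from 6 lists. TMM scaling and the other alternatives were not run for these lists. The shares of all genes that stood above d1 were 4.69%, 3.45% and 7.32% on days 4, 7 and 14, and those below it were 1.44%, 2.85% and 6.07%. Of the 16 chain modification and folding genes that could be compared, 2 were higher at d4, the prolyl 3-hydroxylases P3h1 (37.5 to 76.6 CPM) and P3h3 (33.2 to 66.7), 0 passed at d7, and at d14 the prolyl 4-hydroxylase subunit P4ha2 was 2.15-fold higher (1.75 to 2.66) and P3h4 was lower at 0.431 (0.350 to 0.529). P3h1 and P3h3 lay just above the 2-fold limit at d4. The list's median log2 ratios to d1 were 0.35, 0.13 and 0.15, under the collagens' own. In propeptide cleavage, 0 of 3 genes passed at d4 and d7 and 1 of 4 at d14, the procollagen C-proteinase enhancer Pcolce2, with 1.55 CPM at d1 (5 UMIs) and 39.7 at d14. Its ratio was 25.6 (10.8 to 79.9). Being under 20 CPM at d1, Pcolce2 could be compared only because it was high at d14, so its pass was partly set by the rule.

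Crosslinking enzymes were higher at d4 in 3 of 6 cases (4.69% of all genes), the lysyl oxidases Loxl1 (107 to 259.6 CPM), Loxl2 (63.0 to 144) and Loxl3 (9.61 to 21.0). Loxl3 was under 20 CPM at d1 and entered only through its d4 level. Loxl1 alone was higher at d7 and d14 (2.37-fold and 2.34-fold), and the transglutaminase Tgm2 was lower at d7, at 0.405 (0.368 to 0.446). Fibril regulators were higher in 5 of 9 cases on each later day (4.69%, 3.45% and 7.32% of all genes), with median log2 ratios of 1.15, 1.18 and 1.31. Lumican (Lum), which spaces fibrils, had 64.8, 199, 302 and 301 CPM, and decorin (Dcn) had 213, 418, 625 and 784. Fibronectin (Fn1), a scaffold for new fibrils, was lower at d14 than at d7, at 264 against 592 CPM.

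Collagen receptors passed in 0 of 4 cases at d4, 0 of 3 at d7 and 1 of 4 at d14, where 6.13%, 6.3% and 13.4% of all genes passed in either direction. The receptor that passed was the discoidin receptor Ddr1, lower at 0.471 (0.388 to 0.570). Degradation and uptake genes were higher in 3 of 4 cases at d4, 1 of 3 at d7 and 3 of 4 at d14 (4.69%, 3.45% and 7.32% of all genes). The gelatinase Mmp2 had 129, 303, 228 and 464 CPM, the uptake receptor Mrc2 had 18.9, 59.4, 49.6 and 56.2, and the protease Ctsk had 10.2, 26.9, 15.1 and 21.1. Mrc2 and Ctsk were under 20 CPM at d1 and entered only through a later section, so their count as higher was partly set by the rule. In each of these lists the 3 comparisons share the d1 section.

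Marker sums moved beside the collagens over time. Fibroblast markers had 888, 1501, 1858 and 4429 CPM, highest at d14 where fibrillar chains were below their d4 level. Endothelial markers had 922, 1288, 1198 and 1398 CPM, and mural markers 1207, 1447, 1224 and 1792. Macrophage markers had 338, 206, 216 and 479 CPM, neutrophil markers 222, 35.1, 20.3 and 47.4 (Ly6g at 0 at d1, d4 and d7), endocardial markers 212, 151, 86.0 and 199, epicardial markers 90.2, 131, 96.8 and 59.7, and valve and cartilage markers 8.37, 30.3, 23.9 and 22.8. The skeletal muscle list, which holds Ckm that heart muscle expresses, had 2953, 1642, 2478 and 3566 CPM, with Myh2 at 0 at d1, d4 and d14. Their part in the collagen levels was not tested.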

How the data were processed

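The authors deposited unnormalised UMI counts for each gene in each spot. Per the submitters' processing notes, Space Ranger 1.3.0, build mm10 and Seurat 4.1.1 were used, and the notes give Seurat no role. How the listed spots were selected is not given in the sources used here. Spots with 500 or more UMIs were kept and their counts summed per section or spot set. CPM divides by UMIs without 8 haemoglobin and 13 mitochondrially encoded genes. Ratios carry exact conditional binomial (Clopper-Pearson) 95% intervals, CPM exact Poisson intervals and shares Clopper-Pearson intervals. All 44 genes matched GENCODE vM21 (GRCm38) by ID. Scripts, checked on simulated data, used Python 3.11.15, numpy 2.4.6, scipy 1.17.1, pandas 2.3.3 and edgeR 4.0.16 (TMM only). Members at 20 CPM are named with all values, lower ones where their class or a 4-fold difference called for it, and up to 3 called genes per pathway list and day with the largest or smallest ratios. The members and lists were chosen with earlier results of these data known, and examples among them after their values were seen. Alternatives were other CPM minimums, other scaling, other spot filters, means over spots, other matrix-rich cutoffs or lists and spots left out. The valve and cartilage alternative was added after seeing the data.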

Additional observations from a re-analysis of the deposited data

How the results depend on the processing

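Of 389 class and total ratios under alternatives, 355 kept their side of the rule without a reversal, as did 410 of 441 for single chains. A change of direction was counted as a reversal only where the main interval excluded 1. Of 148 counts, 124 stayed within 1.5 times, and 54 of 72 shares stayed within their interval. No paired analysis was possible because each day had 1 section. Depth limits chains under about 20 UMIs, pooled levels most at d1 and values per spot most at d14. The cause of the differences below was not tested, except that a higher minimum removes chains.

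For chains over time, a minimum of 50 CPM gave 7 of 15 higher at d4 (12 of 21 at 20 CPM). At d7 it gave 5 of 15 (8 of 20). Of all genes 3.93% and 3.01% were higher at that minimum. From d4 to d7 0 of 15 were lower (1 of 21), against 1.15% of all genes. From d7 to d14 1 of 16 was higher and 0 lower (2 and 2 of 20), against 5.80% and 3.14%. With no minimum there were 13 higher and 2 lower of 40 at d7 (4.00% and 3.76% of all genes). At d14 there were 12 higher and 2 lower of 39 (7.07% and 7.26%). From d4 to d7 2 of 41 were lower (4.01%), and from d7 to d14 4 of 40 were higher and 5 lower (5.20% and 5.10%). A minimum of 10 CPM gave 1 of 20 lower at d14 (7.42% of all genes). Means over spots gave 7 of 20 higher at d4 (4.13% of all genes). They gave 0 of 20 lower from d4 to d7 (1.23%) and 1 of 20 higher from d7 to d14 (4.95%). Leaving out matrix-rich spots gave 7 of 18 higher at d4 and 4 of 17 at d7 (4.05% and 3.24% of all genes). From d7 to d14 it gave 1 of 19 lower (3.80%). Leaving out valve and cartilage spots gave 5 of 19 higher at d4 (3.91%). It gave 0 of 19 lower from d4 to d7 (1.61%) and 1 of 19 from d7 to d14 (3.58%).

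Among class log2 ratios, CPM over all genes put fibrillar chains at d7 at 0.95 (1.06) and FACIT at d14 at 0.99 (1.05), as did means over spots for FACIT (0.99). From d4 to d7, TMM scaling turned all collagens to 0.017 and fibrillar chains to 0.079, and means over spots turned fibrillar chains to 0.049 and network chains to 0.054. Without matrix-rich spots fibrillar chains had 0.93 at d4 and 0.86 at d7, and FACIT 0.92 at d14. Network chains had 4.05 at d4 and 3.91 at d7, under 20 CPM, and 1.71 from d7 to d14. Col12a1 at d7 turned to -0.69, under 20 CPM and from 30 UMIs against 28 at d1. The fibrillar shares were then 44.97%, 50.1%, 52.3% and 48.4% and the basement membrane shares 38.7%, 33.6%, 30.5% and 33.0%. Without valve and cartilage spots fibrillar chains had 0.90 and 0.89 at d4 and d7, and network chains 1.84 and 1.82, and 1.14 from d7 to d14.

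For matrix-rich spots, the top 5% put basement membrane chains at log2 1.09 and multiplexins at 1.14 at d1, and the top 20% put multiplexins at 0.84 at d4. Spots chosen by macrophage markers put beaded filament chains at 1.00, 0.93, 0.94 and 0.76 over the 4 sections, multiplexins at 0.82 (d4) and 0.68 (d14), FACIT at 0.99 and network chains at 0.69 at d14, with 7 chains higher at d14. Spots chosen by fibroblast markers gave 1 higher chain at d1, with fibrillar 0.60, beaded filament 0.56 and FACIT 0.43, and at d4 beaded filament 0.97 and multiplexins 0.83.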

Other observations

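Several collagen genes lie beside each other in the genome, and neighbours did not always have similar profiles. Col3a1 and Col5a2 stand 24615 bases apart on chromosome 1, on opposite strands, and the ratio of their UMIs was 8.44 at d1 (7.58 to 9.42) against 9.89, 12.9 and 13.3 on days 4, 7 and 14 (12.3 to 14.3 at day 14). Col4a3 and Col4a4, 72 bases apart on chromosome 1 and on opposite strands as Col4a1 and Col4a2 are, had 6, 11, 7 and 19 UMIs and 8, 35, 24 and 69. Col6a4, Col6a5 and Col6a6 are neighbours on chromosome 9, and of these Col6a6 had 27 to 188 UMIs per section, Col6a5 had 1 to 19, and Col6a4 had 4 at d4 and 0 elsewhere.

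A few chains under 20 CPM were also concentrated in matrix-rich spots of some sections. Col9a2 was 14.0-fold higher there at d4 (8.14 to 24.8) and 10.3-fold at d7 (4.99 to 21.2), and Col27a1, a fibrillar chain best known from cartilage, was 4.03-fold higher at d4 (2.45 to 6.52) and 4.41-fold at d14 (2.08 to 8.90), while its d7 ratio of 2.18 had an interval of 0.817 to 4.98. Col7a1, the anchoring fibril chain of skin, was 5.19-fold higher at d4 (2.39 to 11.04) from 14 and 18 UMIs, but had 0 and 11 UMIs in matrix-rich and other spots at d7 and 2 and 10 at d14 (interval 0.188 to 8.28).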
